A study of Homo sapiens with 24 samples.

Results

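The antiviral interferon effectors examined here are 10 named genes, IFIT1, IFIT2, IFIT3, IFIT5, MX1, ISG15, IFI6, OAS1, OAS2, and OAS3, chosen by gene symbol. The count table of the series held 7 of the 10 among its 14493 genes, namely OAS1, OAS2, OAS3, IFI6, MX1, ISG15, and IFIT5. The remaining 3, IFIT1, IFIT2, and IFIT3, were not analysed here. RNA-seq was performed in SKBR3 cells, an established HER2-positive human breast cancer cell line, in 24 libraries that form 8 groups of 3 replicates. One control was untreated proliferating cells at day 0, and the other was untreated cells kept in culture until day 7. Therapy-induced senescence (TIS) was induced for 7 days, with fresh drug on day 3, by 250 nmol/L ND-646 (an inhibitor of acetyl-CoA carboxylase, ACC), 250 nmol/L TVB-3166 (an inhibitor of fatty acid synthase, FASN), 10 umol/L bleomycin, 10 nmol/L doxorubicin, 500 nmol/L alisertib (an Aurora kinase A inhibitor), or 1 umol/L palbociclib (a CDK4/6 inhibitor, spelled Palboclib in the labels). All groups are a single cell line, and nothing in the labels says that replicates were separate cultures, so p-values measure the spread between these libraries, which may be technical.

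Interferon-stimulated genes encode proteins that limit viral replication. Secreted interferons bind their receptors, the JAK1 and TYK2 kinases are activated, and STAT2 and IRF9 enter the nucleus in the ISGF3 complex, which binds the interferon-stimulated response element in the promoters of such genes. OAS1, OAS2, and OAS3 sense double-stranded RNA and make 2'-5'-linked oligoadenylates as a signal of infection. MX1 is a dynamin-like GTPase that blocks viral ribonucleoproteins, ISG15 is a ubiquitin-like protein that is conjugated to other proteins, IFIT5 binds RNA through tetratricopeptide repeats, and IFI6 is a small membrane protein induced by interferon alpha. Interferon-stimulated genes are also known to be expressed in senescent cells and after DNA damage.

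The promoters of 5 measured members are shown so that the element by which interferon is known to act on such genes can be seen beside their values. Each sequence is the 160 bases before the start of the gene, 5' to 3' in the direction of transcription, from RefSeq on GRCh38.p14, with matches to GAAANNGAAA or its reverse complement TTTCNNTTTC in capitals. Overlapping matches form a single run of capitals.
IFI6 (chr1:27672193-27672352, minus strand): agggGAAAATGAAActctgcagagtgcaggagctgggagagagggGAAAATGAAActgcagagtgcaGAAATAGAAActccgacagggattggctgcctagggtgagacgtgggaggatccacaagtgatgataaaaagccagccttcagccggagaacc
ISG15 (chr1:1013337-1013496, plus strand): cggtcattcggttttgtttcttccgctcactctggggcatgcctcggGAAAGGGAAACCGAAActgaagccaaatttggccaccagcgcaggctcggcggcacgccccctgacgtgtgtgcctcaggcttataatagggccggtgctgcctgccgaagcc
OAS3 (chr12:112938314-112938473, plus strand): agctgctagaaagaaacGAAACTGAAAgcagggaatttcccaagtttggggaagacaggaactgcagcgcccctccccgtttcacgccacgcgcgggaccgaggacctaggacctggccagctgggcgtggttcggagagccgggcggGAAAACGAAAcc
IFIT5 (chr10:89414408-89414567, plus strand): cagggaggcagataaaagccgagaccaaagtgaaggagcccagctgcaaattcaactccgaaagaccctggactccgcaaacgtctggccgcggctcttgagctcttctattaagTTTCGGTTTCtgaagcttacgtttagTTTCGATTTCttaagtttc
OAS1 (chr12:112906802-112906961, plus strand): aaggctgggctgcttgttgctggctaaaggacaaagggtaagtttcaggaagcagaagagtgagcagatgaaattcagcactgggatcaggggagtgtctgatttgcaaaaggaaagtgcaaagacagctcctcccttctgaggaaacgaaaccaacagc

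IFI6 held 3 matches, which began 156, 115, and 93 bases before its start. ISG15 held 2 overlapping matches, at 113 and 107 bases, OAS3 held 2 matches, at 143 and 12 bases, and IFIT5 held 2 matches on the opposite strand, at 45 and 19 bases. OAS1 had no match to these letters in the 250 bases searched. Its printed sequence holds gaaacgaaa, with 1 base between the repeats, which the pattern cannot match. MX1 has 3 annotated starts, of which 1 had a match, 196 bases upstream. RefSeq promoters matched 8 of the 10 listed genes, IFIT1 and IFIT3 included but not IFIT2 or OAS2, and 7 of those 8 genes, or 8 of their 11 promoters, had a match in the 250 bases, whereas 3.02% of all 35116 promoters of that length did. A match describes the letters and is not evidence of a bound site, and the lack of a match is not evidence that the element is absent.

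On GRCh37, as annotated by GENCODE, the 3 OAS genes lie side by side on the plus strand of chromosome 12, OAS1 from 113343661 to 113371024, OAS3 from 113375856 to 113414265, and OAS2 from 113416200 to 113449528. IFIT5 spans 91174325 to 91181362 on chromosome 10 and MX1 spans 42791947 to 42841998 on chromosome 21. ISG15 spans 936518 to 949920 and IFI6 spans 27992575 to 27998723 on chromosome 1. Genes on the other strand overlap every member except IFIT5, and a non-coding RNA gene on the same strand overlaps IFI6. Because the use of strand in counting is not stated in the sources used here, reads of such overlapping genes cannot be told apart from those of the members.

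Gene counts per library totalled 29405121 to 44316330. The 6 epithelial and ERBB2 markers, KRT8, KRT18, KRT19, EPCAM, ERBB2, and GRB7, were measured in every group with a summed level of 9938 to 20059 CPM (read counts scaled to the size of the library with TMM). Of 7 leukocyte markers only CSF1R was in the table, and of 6 fibroblast and endothelial markers only COL1A1 and VWF were, with summed levels of 6.50 to 15.7 CPM. ND-646 replicate 1 lay farthest from the other replicates of its group, with a mean Euclidean distance of 83.6 between log2 CPM profiles, against 37.7 to 63.4 for the other 23 libraries, so the counts of members and of pathway genes called with ND-646 against day 0 cells are also given without it.

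Culture time was examined first, by comparing untreated day 7 with untreated day 0 cells. The labels give a refeed on day 3 for every drug group and none for the day 7 control. In comparisons of a drug with day 7 cells, a difference in refeeding cannot be told apart from the drug. The members were low in both groups. OAS2 was measured at 0.71, 0.70, and 0.77 CPM at day 0 (22 to 28 reads) and at 0.53, 1.04, and 1.19 CPM at day 7, so the groups overlapped. MX1 had 15 to 19 reads in each day 0 library. OAS3 was the member with the most reads, at 15.0, 16.2, and 12.1 CPM at day 0 and 14.8, 16.2, and 15.5 CPM at day 7. By the quasi-likelihood test of edgeR, 0 of the 7 members were called at a Benjamini-Hochberg adjusted p under 0.05, against 0.389% of 13636 genes called higher and 0.198% called lower. Two-sided unadjusted p-values were under 0.05 for 2 members, IFIT5 (1.37-fold) and IFI6 (1.56-fold), and DESeq2 called 0.

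Most members were higher after inhibition of fatty acid synthesis than in untreated day 0 cells, with OAS2 and OAS1 ahead. OAS2 was measured at 23.1, 28.5, and 23.1 CPM with TVB-3166 and at 6.16, 11.04, and 6.73 CPM with ND-646. OAS1 was measured at 43.8, 46.6, and 41.7 CPM with TVB-3166 and at 30.4, 29.4, and 25.4 CPM with ND-646, against 1.58, 3.49, and 2.01 CPM at day 0. All libraries of both drugs lay above all untreated libraries for both genes. In bulk RNA, more expressing cells and more RNA per cell cannot be told apart. OAS2 rose 34.2-fold (95% interval 26.2 to 44.6, adjusted p = 4.39e-08) with TVB-3166, which was the largest fold increase of the 13686 genes tested, and 10.9-fold (6.66 to 17.8, adjusted p = 8.39e-05) with ND-646. OAS1 rose 19.0-fold (13.4 to 26.8, adjusted p = 3.25e-07) with TVB-3166, rank 12 by fold, and 12.1-fold (7.61 to 19.1, adjusted p = 4.91e-05) with ND-646, rank 44 of 13604.

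The other members had smaller fold-changes. OAS3 was measured at 44.02, 40.7, and 46.6 CPM with TVB-3166 and at 22.0, 31.6, and 28.4 CPM with ND-646. It rose 3.05-fold and 1.89-fold, respectively. IFI6 was measured at 29.1, 29.7, and 33.4 CPM with TVB-3166 and at 18.9, 11.2, and 9.89 CPM with ND-646, against 2.82, 4.60, and 3.88 CPM at day 0. It rose 8.24-fold and 3.51-fold, and the highest of its ND-646 values was in replicate 1. MX1 rose 5.69-fold and 4.23-fold, and IFIT5 rose 2.23-fold and 2.07-fold. ISG15 rose 2.40-fold with TVB-3166 and had a value of 1.76-fold with ND-646 that missed the threshold (adjusted p = 0.0519).

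In TVB-3166 TIS cells 7 of 7 members were therefore higher than at day 0 (background 27.4% higher and 27.7% lower of all genes tested), and in ND-646 TIS cells 6 of 7 (19.1% higher and 18.8% lower). Without ND-646 replicate 1 the same count of 6 was called, with log2 fold-changes of 3.55 for OAS1, 3.60 for OAS2, and 1.48 for IFI6. Against untreated day 7 cells all 7 members were higher with either drug, 25.4% of all genes being higher with TVB-3166 and 17.2% with ND-646. The ND-646 count fell to 3 without day 7 replicate 1, to 4 without day 7 replicate 3, and to 5 without either day 7 replicate 2 or ND-646 replicate 2. All these comparisons share the untreated libraries of a day, so they are not independent of each other.

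Bleomycin, which breaks DNA, gave the highest levels of 6 members. OAS3 was measured at 131.9, 77.8, and 121.8 CPM, IFI6 at 95.2, 71.7, and 81.2 CPM, OAS2 at 51.5, 33.1, and 46.5 CPM, and MX1 at 15.0, 8.11, and 14.5 CPM. OAS2 rose 59.9-fold against day 0 (95% interval 42.6 to 84.3, adjusted p = 1.47e-06), rank 3 by fold of 13743 genes. MX1 rose 26.1-fold (16.3 to 41.7), IFI6 rose 22.1-fold (16.3 to 30.1), and OAS1 rose 18.1-fold (12.0 to 27.4). OAS3 rose 7.68-fold, ISG15 rose 6.48-fold, and IFIT5, the member with the smallest change, rose 3.69-fold.

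Doxorubicin, a topoisomerase poison, gave lower levels of all 7 members than bleomycin, with no overlap of libraries. OAS3 was measured at 59.4, 63.5, and 59.7 CPM, IFI6 at 34.2, 28.8, and 26.8 CPM, OAS1 at 15.8, 22.9, and 14.4 CPM, and OAS2 at 11.2, 16.1, and 10.1 CPM. OAS2 rose 17.2-fold (95% interval 11.9 to 24.8), IFI6 rose 8.05-fold, MX1 rose 7.69-fold, and OAS1 rose 7.62-fold. OAS3 rose 4.25-fold, ISG15 rose 3.12-fold, and IFIT5 rose 2.70-fold. Thus, 7 of 7 members were higher than at day 0 with bleomycin (24.1% of all genes higher, 25.3% lower) and with doxorubicin (23.7% higher, 24.8% lower). They were also all higher than at day 7 with bleomycin (22.4% of all genes) and with doxorubicin (21.9%). Each of these 4 counts was the same when any 1 library was left out.

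Bleomycin and doxorubicin were then compared directly. In bleomycin TIS cells 6 of 7 members were higher than in doxorubicin TIS cells, against 6.54% of all 13862 genes. OAS2 was 3.50-fold higher (95% interval 2.53 to 4.84, adjusted p = 0.00496), MX1 3.41-fold, IFI6 2.76-fold, OAS1 2.39-fold, ISG15 2.08-fold, and OAS3 1.81-fold. IFIT5 had a ratio of 1.37 (1.09 to 1.73, adjusted p = 0.0728). The number called fell to 2 without doxorubicin replicate 1 and to 3 without doxorubicin replicate 3. CSF1R, the leukocyte marker in the table, was at 23.9 to 37.7 CPM with bleomycin, 17.8 to 22.4 CPM with doxorubicin, and 3.23 to 8.99 CPM at day 0. It was also at 17.5 to 20.5 CPM with palbociclib, where the summed level of the members was lowest, and at 4.08 to 12.6 CPM in the other groups. Its part in these results was not tested.

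**Figure D1:**
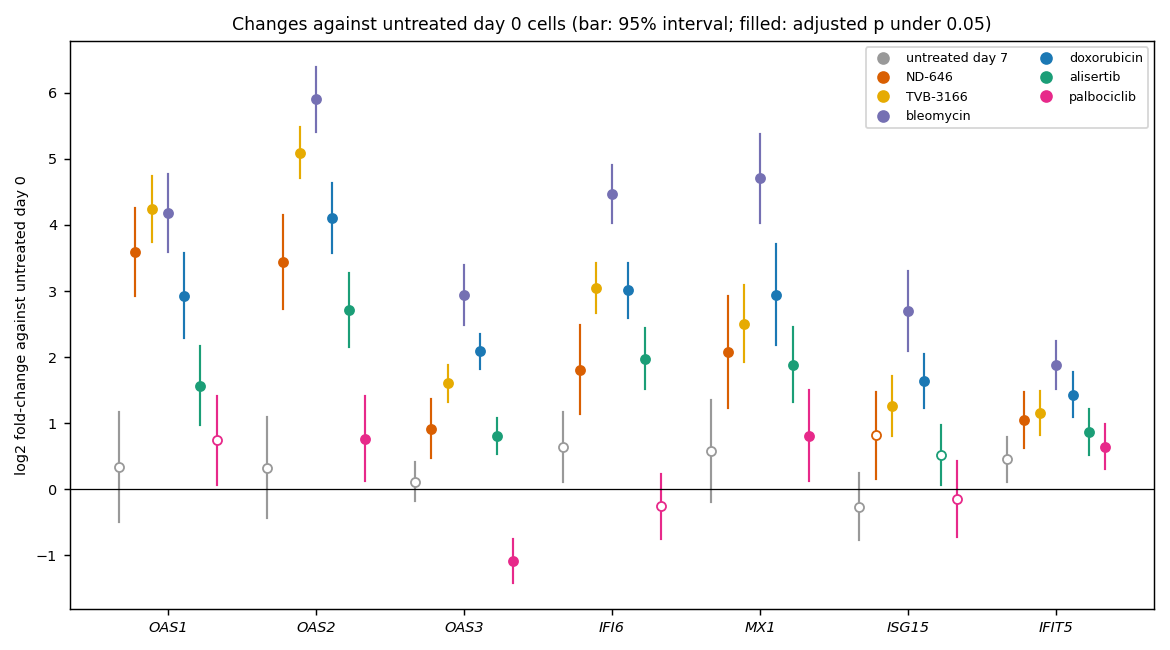
Log2 fold-change of each member (x axis) against untreated day 0 cells for the other 7 groups, with 95% intervals and filled points for an adjusted p under 0.05. Bleomycin gave the largest change of every member but OAS1, and with palbociclib OAS3 was below 0, at -1.08.

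The inhibitors of cell-cycle kinases differed from each other. With alisertib, IFI6 was measured at 11.8, 16.7, and 15.9 CPM, OAS2 at 4.15, 6.18, and 4.05 CPM, OAS1 at 6.07, 7.95, and 6.86 CPM, and OAS3 at 26.6, 24.8, and 24.5 CPM, all above the untreated libraries. OAS2 rose 6.54-fold against day 0 (95% interval 4.43 to 9.66, adjusted p = 0.000115), IFI6 rose 3.94-fold, MX1 rose 3.69-fold, OAS1 rose 2.97-fold, IFIT5 rose 1.82-fold, and OAS3 rose 1.75-fold. ISG15 had a value of 1.43-fold (adjusted p = 0.0685). Alisertib TIS cells therefore had 6 of 7 members higher than at day 0 (17.7% of all genes higher, 19.6% lower). Against day 7 the number was also 6 (9.55% of all genes), with IFIT5 at 1.35-fold (adjusted p = 0.0586) and called with the replicate number as a block (adjusted p = 0.0272). Without day 7 replicate 1, or without alisertib replicate 3, 5 were called.

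With palbociclib, OAS3 was measured at 7.32, 6.60, and 6.48 CPM and IFI6 at 2.95, 3.43, and 3.04 CPM. The OAS3 values lay below all untreated libraries, and those of IFI6 overlapped the day 0 values and lay below the day 7 values. OAS1 was measured at 3.07, 4.89, and 3.82 CPM and OAS2 at 1.04, 1.62, and 1.07 CPM, and of these only OAS2 lay above all day 0 values. OAS3 was 2.12-fold lower than at day 0 (adjusted p = 0.000201), whereas IFIT5 was 1.56-fold, MX1 1.75-fold, and OAS2 1.70-fold higher (adjusted p = 0.00521, 0.0477, and 0.0465). Hence 3 of 7 members were higher and 1 was lower, beside 26% of all genes higher and 27.2% lower. The 3 higher calls became 1 or 2 in every fit that left out 1 library, and DESeq2 called OAS1 (adjusted p = 0.0395) but not MX1 or OAS2.

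Against untreated day 7 cells 2 of 7 members were lower with palbociclib (22.9% of all genes), OAS3 by 2.26-fold (adjusted p = 2.45e-05) and IFI6 by 1.84-fold (adjusted p = 0.00465). None was called higher by edgeR or DESeq2, and 0 had an unadjusted p under 0.05 in that direction, beside 22% of all genes called higher. Without day 7 replicate 2, 1 member was called higher. The intervals of the log2 fold-changes for OAS1 (-0.24 to 1.11), OAS2 (-0.29 to 1.21), MX1 (-0.48 to 0.99), ISG15 (-0.43 to 0.71), and IFIT5 (-0.09 to 0.52) leave room for changes of either sign.

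In palbociclib compared directly with alisertib TIS cells, 5 of 7 members were lower, against 14.9% of all 13846 genes. IFI6 was 4.68-fold lower (adjusted p = 6.62e-06), OAS2 3.82-fold (adjusted p = 0.000281), and OAS3 3.68-fold (adjusted p = 1.19e-06). MX1 had a log2 fold-change of -1.07, and OAS1 was 1.76-fold lower. IFI6 ranked 13831 of the 13846 genes by fold, so it was among the genes with the strongest relative decrease. ISG15 had a log2 fold-change of -0.66 (adjusted p = 0.0536) and was called lower with the replicate number as a block (adjusted p = 0.0191). IFIT5 did not pass, with a log2 fold-change of -0.21 (95% interval -0.52 to 0.10).

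TVB-3166 and ND-646, which act on consecutive enzymes of fatty acid synthesis, were compared at their common dose of 250 nmol/L and day 7. Whether this dose inhibited both enzymes equally cannot be told from the RNA counts. All 7 members had a higher mean with TVB-3166, and 1 was called, OAS2, at 3.12-fold (95% interval 2.12 to 4.60, adjusted p = 0.0404), against 0.52% of all 13662 genes. The values of IFI6 (2.33-fold, adjusted p = 0.0703), OAS1 (1.55-fold, adjusted p = 0.0697), and OAS3 (1.60-fold, adjusted p = 0.101) missed the threshold. Same-numbered libraries of these drugs deviated together, and with the number as a block IFI6 (adjusted p = 0.0445) and OAS1 (adjusted p = 0.0466) were also called, 3 in all. The number was 5 without ND-646 replicate 1 and 0 without any other single library.

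OAS1 was the member not called between bleomycin and TVB-3166. The comparisons of bleomycin with the inhibitors of fatty acid synthesis were chosen after the levels had been seen, and the drugs were not matched in dose. In bleomycin TIS cells 6 of 7 members were higher than in TVB-3166 TIS cells (14.4% of all 13807 genes): MX1 by 4.58-fold, ISG15 by 2.69-fold, IFI6 by 2.68-fold, OAS3 by 2.52-fold, OAS2 by 1.75-fold, and IFIT5 by 1.65-fold. OAS1 had a log2 fold-change of -0.06 ± 0.11 (SE, 95% interval -0.30 to 0.18, adjusted p = 0.719), and its libraries overlapped, at 37.0 to 46.8 CPM with bleomycin and 41.7 to 46.6 CPM with TVB-3166. The count of 6 was found in each fit that left out 1 library.

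Compared with ND-646 TIS cells, bleomycin TIS cells also had 6 of 7 members higher (4.63% of all 13745 genes), with IFI6 6.25-fold, MX1 6.15-fold, OAS2 5.49-fold, OAS3 4.06-fold, ISG15 3.68-fold, and IFIT5 1.77-fold (95% interval 1.33 to 2.36) higher. OAS1 was at 1.50-fold (95% interval 1.17 to 1.91, adjusted p = 0.0579), an interval that overlaps that of IFIT5. OAS1 was called with the replicate number as a block (adjusted p = 0.0382), by DESeq2 (adjusted p = 0.0154), and without ND-646 replicate 1 (adjusted p = 0.0229). Its interval in the main fit lay below that of ISG15 (2.19 to 6.16). It also lay below those of OAS3, OAS2, MX1, and IFI6, whose lower ends were 2.81, 3.58, 3.50, and 4.14. Without bleomycin replicate 1 or bleomycin replicate 3, 4 members were called.

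**Figure D2:**
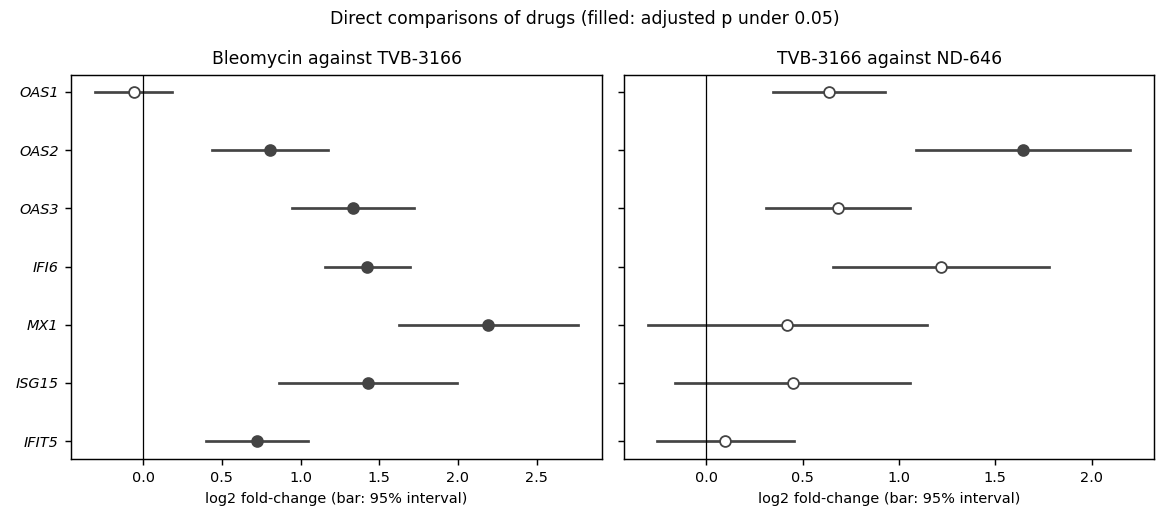
Log2 fold-changes with 95% intervals of the 7 members for bleomycin against TVB-3166 (left) and TVB-3166 against ND-646 (right), with filled points for an adjusted p under 0.05. On the left OAS1 lies at -0.06 and the other 6 members lie between 0.72 and 2.19, and on the right only OAS2, at 1.64, is filled.

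The proportions of the OAS genes within each library are given as a description. They restate the counts above, and the pairs of genes were chosen after the levels had been seen. The ratio of OAS1 to OAS3 read counts was 0.105, 0.215, and 0.166 at day 0 and 0.120, 0.271, and 0.172 at day 7. It was 1.38, 0.931, and 0.895 with ND-646, while TVB-3166 gave 0.994, 1.14, and 0.896. All 6 libraries with an inhibitor of fatty acid synthesis were above all 18 other libraries, whose highest ratio was 0.740, in palbociclib TIS cells.

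The ratio was 0.355, 0.476, and 0.353 with bleomycin, 0.266, 0.360, and 0.241 with doxorubicin, and 0.228, 0.321, and 0.280 with alisertib. With palbociclib it was 0.419, 0.740, and 0.590, where the OAS3 level was the lowest of all groups. OAS1 to IFI6 was 1.25 to 2.63 in the libraries of ND-646 and TVB-3166 and 1.04 to 1.43 with palbociclib, which overlapped TVB-3166. It was 0.432 to 0.793 in those of bleomycin, doxorubicin, and alisertib and 0.369 to 0.757 in the untreated libraries, so that these groups overlapped, whereas for OAS1 to OAS3 the bleomycin libraries lay above all untreated ones. OAS2 to OAS3 did not separate the drugs in this way, as bleomycin (0.382 to 0.425) lay between ND-646 (0.237 to 0.350) and TVB-3166 (0.497 to 0.701). These ratios compare groups and not the levels of 2 genes, since longer genes collect more reads, and they carry no test.

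**Figure D3:**
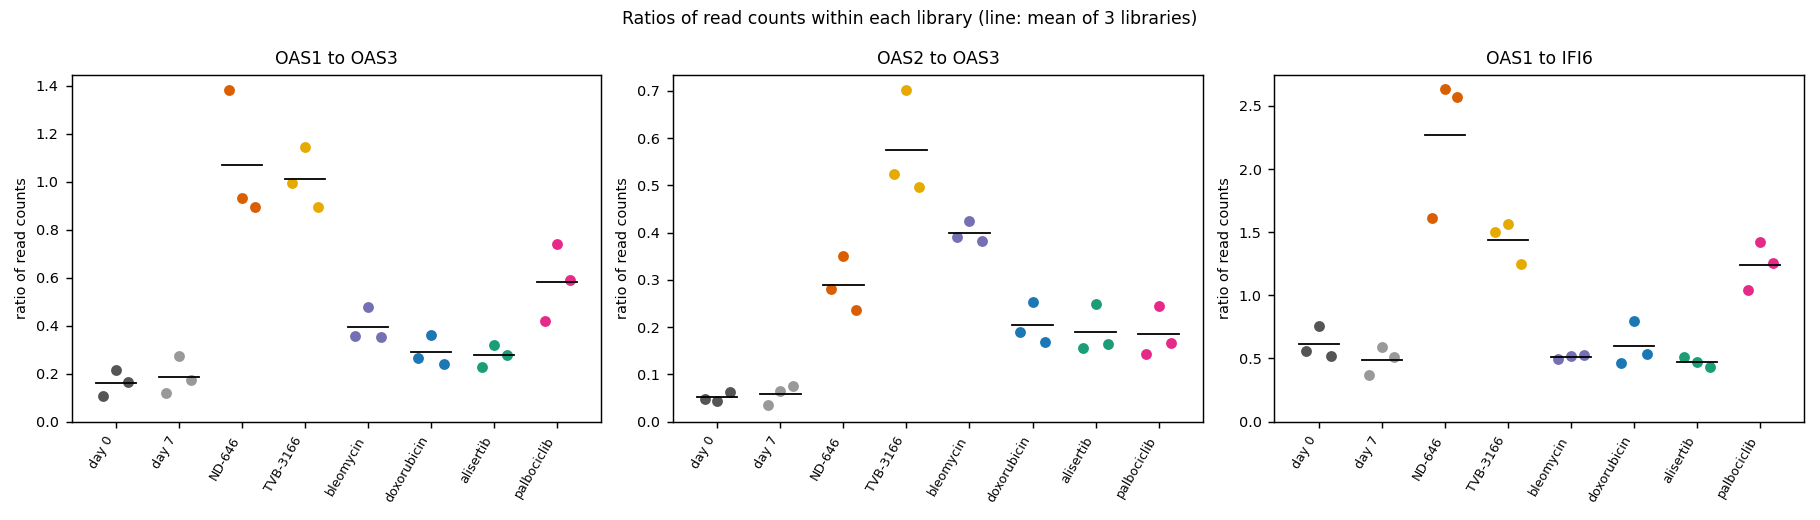
Ratios of read counts within each library for OAS1 to OAS3, OAS2 to OAS3, and OAS1 to IFI6, by group, with a line at the mean of 3 libraries. In the left panel the ND-646 and TVB-3166 libraries, at 0.895 to 1.38, lie above all others.

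Per kilobase of merged exon length in GENCODE, IFI6 was at 4.03 ± 0.96 CPM per kb (SD, n = 3) at day 0 and 88.4 ± 12.6 with bleomycin, and ISG15 was at 2.44 ± 0.31 and 15.8 ± 5.3. IFIT5 rose from 1.04 ± 0.03 to 3.84 ± 0.48, OAS3 from 0.80 ± 0.12 to 6.12 ± 1.60, OAS1 from 0.18 ± 0.08 to 3.25 ± 0.38, OAS2 from 0.065 to 3.89 ± 0.85, and MX1 from 0.027 to 0.70 ± 0.21. Merged exons include rare isoforms and run from 867 bases in ISG15 to 18045 bases in OAS3, with 17984 in MX1, 13021 in OAS1, and 11233 in OAS2. A long merged length lowers a level on this scale, so the order of the members is uncertain and no ranking is drawn from it.

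The members with fewer reads are given by their range in each group. ISG15 was at 1.89 to 2.42 CPM at day 0, 1.60 to 2.02 CPM at day 7, and 1.34 to 2.29 CPM with palbociclib, so these groups overlapped. It was at 2.87 to 3.36 CPM with alisertib, 3.05 to 5.14 CPM with ND-646, 4.27 to 5.72 CPM with TVB-3166, 6.13 to 7.31 CPM with doxorubicin, and 8.84 to 18.0 CPM with bleomycin. All libraries of these 5 drugs lay above the untreated ones for ISG15, and neighbouring drugs overlapped except TVB-3166 with doxorubicin and doxorubicin with bleomycin.

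MX1 was at 0.474 to 0.483 CPM at day 0, 0.466 to 0.927 CPM at day 7, and 0.667 to 1.01 CPM with palbociclib. It was at 1.67 to 1.98 CPM with alisertib, 1.32 to 2.90 CPM with ND-646, 2.43 to 3.11 CPM with TVB-3166, 2.24 to 5.10 CPM with doxorubicin, and 8.11 to 15.0 CPM with bleomycin. Only bleomycin was separate from all other groups for this gene. IFIT5 had the smallest ratio of its highest to its lowest library among the 7 members, and ranged from 4.45 to 4.71 CPM at day 0 and 5.79 to 6.66 CPM at day 7 to 10.5 to 13.8 CPM with doxorubicin and 14.3 to 18.2 CPM with bleomycin. With palbociclib (6.87 to 7.50 CPM), alisertib (7.29 to 9.56 CPM), ND-646 (8.54 to 10.1 CPM), and TVB-3166 (9.20 to 10.7 CPM), IFIT5 lay above all untreated libraries and below all bleomycin libraries, and each of these groups overlapped the next, TVB-3166 with doxorubicin included.

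Summed over the 7 members, the level was 28.4 ± 3.1 CPM (SD, n = 3) at day 0, 33.9 ± 4.2 at day 7, and 25.0 ± 1.4 with palbociclib. It was 65.0 ± 2.9 with alisertib, 92.3 ± 7.0 with ND-646, 143 ± 10.0 with doxorubicin, 161 ± 1.9 with TVB-3166, and 322 ± 65 with bleomycin. The spread was widest with bleomycin, where all 7 members were lowest in replicate 2 (37.3% of all genes were lowest there) and highest in replicate 1 (34.4% of all genes). Without bleomycin replicate 2, all members were still higher than at day 0, with log2 fold-changes of 1.98 (IFIT5) to 6.07 (OAS2). In the ND-646 group 3 members were highest and 4 were lowest in replicate 1, where 44.8% of all genes were highest and 43.5% lowest.

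The transcription factors of the pathway were described next, in the comparisons with day 0 cells. IRF9, the DNA-binding part of ISGF3, rose in all 6 TIS groups, from 1.75, 4.32, and 4.11 CPM at day 0 to 36.3, 34.3, and 37.1 CPM with TVB-3166 and 47.3, 45.9, and 47.3 CPM with bleomycin. The increase was 13.9-fold with bleomycin, 10.7-fold with TVB-3166, 7.36-fold with doxorubicin, 6.92-fold with ND-646, 5.32-fold with alisertib, and 2.19-fold with palbociclib. STAT2 rose in all 6 groups, by 0.54 (alisertib) to 1.14 (palbociclib) on the log2 scale.

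IRF1, a factor that also binds interferon response elements, rose in all 6 groups, from 1.94-fold with alisertib to 7.63-fold with bleomycin. IRF7, the factor that amplifies interferon production, was called higher with bleomycin (4.10-fold), TVB-3166 (3.29-fold), ND-646 (2.46-fold), and doxorubicin (1.96-fold), and was lower with palbociclib (log2 fold-change -1.09, adjusted p = 0.00793). With alisertib IRF7 was at 1.08-fold (adjusted p = 0.651). IRF2 rose by 0.35 to 0.96 on the log2 scale in the 6 groups, and IRF3 was called lower in 5 of them, by at most 0.60 in TVB-3166 TIS cells (log2 fold-change -0.60). Of these 6 factors, 5 were higher with each of bleomycin (24.1% of all genes higher), ND-646 (19.1%), TVB-3166 (27.4%), and doxorubicin (23.7%), and 4 with each of alisertib (17.7%) and palbociclib (26%). Lower calls were made for 2 with palbociclib and 1 with each of TVB-3166, bleomycin, doxorubicin, and alisertib. Against untreated day 7 cells 5 factors were higher with each of bleomycin (22.4% of all genes), TVB-3166 (25.4%), and doxorubicin (21.9%), 4 with ND-646 (17.2%), and 3 with each of alisertib (9.55%) and palbociclib (22%). IRF9 was not called with palbociclib in that comparison (1.22-fold, adjusted p = 0.198).

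Without ND-646 replicate 1, a choice made after the data were seen, 27.1% of all genes were higher and 27.8% lower with ND-646 than at day 0. The factors called higher numbered 5 again, with IRF9 at 6.59-fold and IRF7 at 2.11-fold, and IRF3 was called lower (log2 fold-change -0.52). Higher calls were made for 3 genes of ISG15 conjugation, 10 other effectors, 4 sensing genes, and 3 receptors and kinases, all described next. In that fit lower calls were made for 3 other effectors, IFITM2 (log2 fold-change -1.65) and IFITM1 (-0.95) among them. They were also made for 1 gene of ISG15 conjugation, USP18 (-0.88), 1 sensing gene, and 0 receptors and kinases. STING1 (0.96) was higher. The genes of 9 interferon ligands that were listed were not analysed here.

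Of the listed genes of ISG15 conjugation, UBA7 (the activating enzyme), UBE2L6 (the conjugating enzyme), and HERC6 (a relative of HERC5, the main ligase for ISG15 in human cells) were higher than at day 0 in every TIS group. They were 25.4-fold, 18.4-fold, and 20.7-fold higher with bleomycin than at day 0, and also passed the test with palbociclib, where ISG15 itself had a log2 fold-change of -0.15 (adjusted p = 0.66). USP18, which removes ISG15 and restrains interferon signalling, was lower with palbociclib (log2 fold-change -1.10), ND-646 (-0.73), and doxorubicin (-0.62). USP18 has a closely similar copy in the genome, so its counts are uncertain. Thus 3 of 4 genes of this list were higher than at day 0 in each TIS group, beside 17.7% (alisertib) to 27.4% (TVB-3166) of all genes. The median log2 fold-change of the list was 0.61 at day 7 against day 0. Against untreated day 7 cells 3 were higher with bleomycin (22.4% of all genes) and doxorubicin (21.9%). With TVB-3166 (25.4%), alisertib (9.55%), and palbociclib (22%) 2 were higher, UBA7 and HERC6. With ND-646 (17.2%) 1 was higher, UBA7. UBE2L6 was at 1.12-fold to 1.36-fold with TVB-3166, alisertib, palbociclib, and ND-646 and missed the threshold.

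Among the other antiviral effectors, 21 of 35 listed genes were in the table. Higher calls were made for 15 with bleomycin (median log2 fold-change of those tested 1.98, and 0.00 over all genes), 15 with TVB-3166 (1.04), 14 with doxorubicin (1.38), 12 with palbociclib (0.67), 11 with alisertib (0.55), and 9 with ND-646 (0.96), beside 17.7% (alisertib) to 27.4% (TVB-3166) of all genes. Lower calls were made for 3 with palbociclib, 2 with each of ND-646 and TVB-3166, and 1 with each other drug, and 20 of the 21 were tested with ND-646 and alisertib. PARP14 (72.6-fold), HELZ2 (26.8-fold), DTX3L, and PARP9 rose most with bleomycin. PARP14 and HELZ2 were also the largest increases of this list with TVB-3166 (14.3-fold and 12.0-fold) and passed the test with palbociclib (8.10-fold and 2.07-fold). At day 0 PARP14 was at 0.10 to 0.80 CPM, and with palbociclib at 2.14 to 3.84 CPM. IFITM2, a membrane protein that restricts viral entry, was lower than at day 0 in all 6 TIS groups. Its log2 fold-changes were -1.43 (ND-646) to -0.46 (bleomycin), whereas its relative IFITM1 rose 8.70-fold with bleomycin. Against untreated day 7 cells 16 of these 21 genes were higher with bleomycin (22.4% of all genes), 15 with doxorubicin (21.9%), and 13 with TVB-3166 (25.4%). Palbociclib gave 10 (22%), alisertib 9 (9.55%), and ND-646 8 (17.2%). With bleomycin 0 were lower, so IFITM2 was not called lower there. Lower calls with the other drugs ran from 1 (ND-646 and TVB-3166) to 4 (palbociclib). IFITM genes are closely similar in sequence, so reads may be split among them.

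Of 8 sensing genes tested, 5 were higher than at day 0 with each of bleomycin (24.1% of all genes) and TVB-3166 (27.4%). Higher calls numbered 4 with doxorubicin (23.7%), 3 with ND-646 (19.1%), and 2 with each of alisertib and palbociclib. With palbociclib 2 of 8 is near the 26% of all genes that were higher, and 3 were lower. With alisertib, where 17.7% of all genes were higher, 1 was lower, as with ND-646 and TVB-3166. DHX58, a regulator of the RNA sensors, led these in each of the 6 groups, with a log2 fold-change of 3.68 with bleomycin. STING1, the adaptor of DNA sensing, was higher than at day 0 with ND-646 (log2 fold-change 1.01) and TVB-3166 (0.61) and lower with alisertib (-0.98) and palbociclib (-0.68). Against untreated day 7 cells 7 sensing genes were higher with doxorubicin (21.9% of all genes), 6 with bleomycin (22.4%), and 5 with TVB-3166 (25.4%). There were 4 with ND-646 (17.2%) and 2 with each of alisertib (9.55%) and palbociclib (22%). Lower calls in that comparison were 1 with palbociclib and 0 with the other drugs, so STING1 was not called lower with alisertib. Of 9 receptor and kinase genes, 3 or 4 were higher than at day 0 in each TIS group, beside 17.7% to 27.4% of all genes. With each of alisertib and palbociclib 1 was lower. Higher calls were made for IFNGR1 and IFNGR2 in all 6, and neither IFNAR1 nor IFNAR2, the receptor for type I interferon, was called in any group, with log2 fold-changes of -0.27 to 0.27. In the comparison with day 7 cells 5 of the 9 were higher with bleomycin (22.4% of all genes) and 2 with alisertib (9.55%). With each of ND-646 (17.2%), TVB-3166 (25.4%), doxorubicin (21.9%), and palbociclib (22%) 4 were higher. There 2 were lower with palbociclib (22.9% of all genes).

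**Figure D4:**
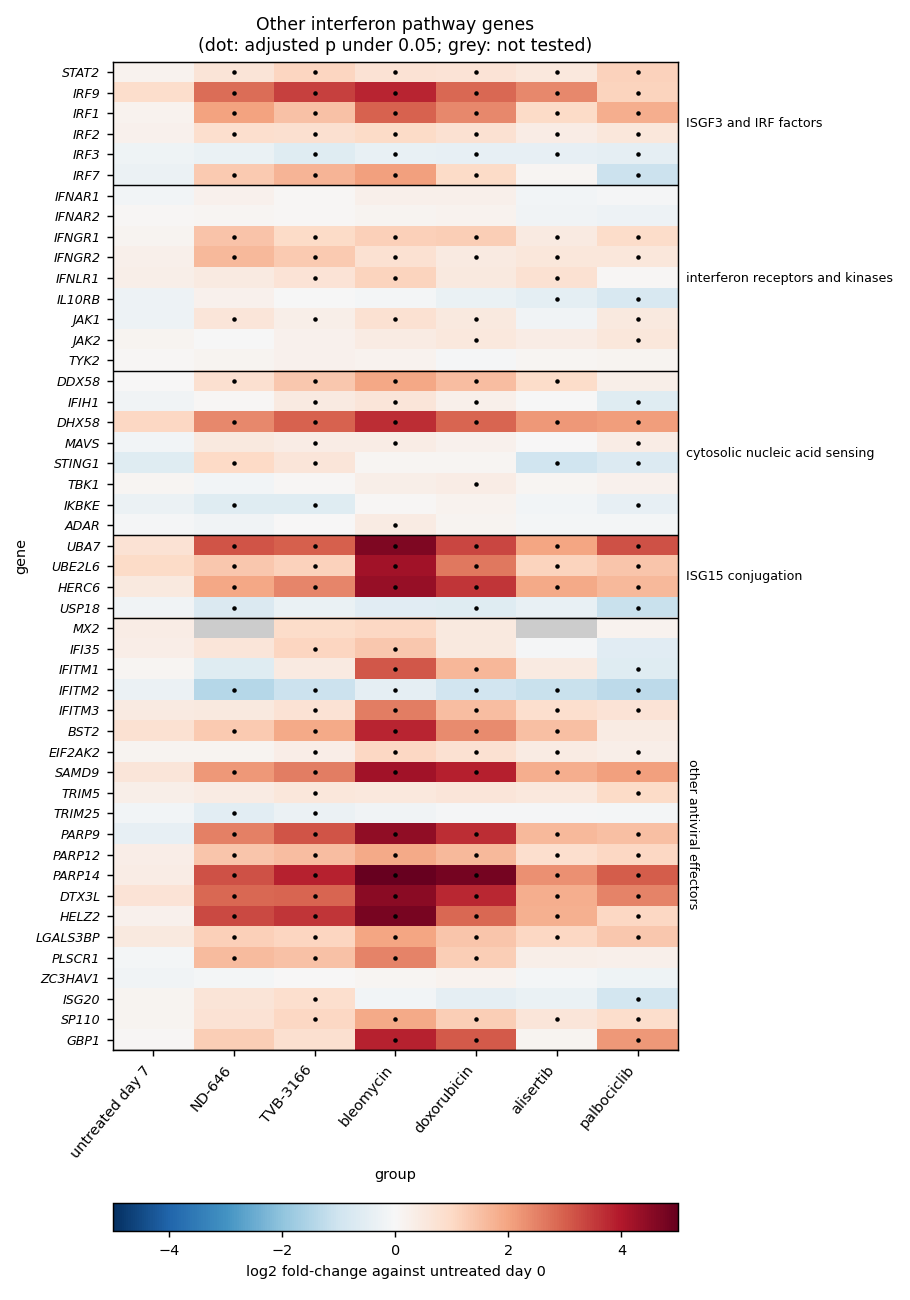
Log2 fold-changes against untreated day 0 cells (colour, with the largest changes drawn at the end of the scale) of the other listed interferon pathway genes in the table, by list and group, with dots for an adjusted p under 0.05 and grey for genes not tested. IRF9, UBA7, and PARP14 are red in all 6 TIS groups, and IFITM2 is blue.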

How the data were processed

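RNA-seq was performed by the authors in 24 SKBR3 libraries. The labels name a stranded mRNA kit and the methods a stranded kit for total RNA. The authors aligned reads to GRCh37 with HISAT2, used StringTie and DESeq2, and deposited raw read counts for each gene as whole numbers. The lowest of these counts is 1, so a gene without reads in 1 library has no row. Counting settings are not given in the sources used here.

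Groups came from the labels. Tests used the quasi-likelihood functions of edgeR 4.0.16 under R 4.3.3 (two-sided, after filterByExpr and TMM, both groups alone in each of 18 fits, no block) and called at a Benjamini-Hochberg adjusted p under 0.05 over all genes. The script recovered known changes in counts made for testing it. The alternatives were DESeq2 1.42.0, RLE scaling, other filters on low counts (none, or at least 10 in every library), 1 fit over all 24 libraries, the study's call (a fold of at least 2 and a raw p under 0.05), a block on replicate number, and the omission of each library in turn. Levels are TMM-scaled CPM. Counting error at this depth matters only for genes with few reads.

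Same-numbered libraries were taken to pair in 6 of 18 comparisons, in which all 3 correlations of their deviations were over 0.1 (bleomycin or alisertib against day 7, TVB-3166 against ND-646, palbociclib against alisertib, and bleomycin against TVB-3166 or ND-646). No source says what the numbers mark.

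The members and lists were chosen with earlier results of these data known. Some pathway genes are not reported here and were left out of the lists. All members are named. Other genes named are the factors, and at most 4 called genes of a list and comparison with the largest changes. USP18, STING1, IFITM1, IFITM2, and the receptors were chosen after their values were seen.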

Additional observations from a re-analysis of the deposited data

How the results depend on the processing

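With 3 libraries a group, the spread between libraries limits the precision, and for MX1 and OAS2 in untreated cells so does the low number of reads. Scaling by library totals alone put the median log2 fold-change of all genes at -0.20 (ND-646 against day 7) to 0.13 (alisertib against day 0), and the changes given are relative to TMM. RLE scaling and at least 10 reads in every library moved no number of members called by over 1.5 times. Without a filter, 0 members were called higher in TVB-3166 against ND-646, where DESeq2 called 4 (OAS1, OAS2, OAS3, and IFI6), all 24 libraries in 1 fit gave 3, and the study's call gave 2. DESeq2 also called ISG15 with ND-646 against day 0, IFIT5 with alisertib against day 7 and in bleomycin against doxorubicin, and OAS1 in bleomycin against ND-646. Under the study's call, 0 members were higher with palbociclib against day 0 and 1 was lower against day 7. With the replicate number as a block, 1 member was higher at day 7 against day 0 (IFI6, adjusted p = 0.0444), and 3 were higher in TVB-3166 against ND-646. Beyond the calls given beside the results, the block in unpaired comparisons added ISG15 with ND-646, OAS1 with palbociclib (both against day 0), and IFIT5 in bleomycin against doxorubicin, and lost MX1 and OAS2 with palbociclib against day 0.

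Leaving out single libraries gave 1 to 2 members higher with palbociclib against day 0, 3 to 7 with ND-646 against day 7, 0 to 1 with palbociclib against day 7, 0 to 5 in TVB-3166 against ND-646, and 2 to 6 in bleomycin against doxorubicin. Without ND-646 replicate 1, 1 factor was lower with ND-646 against day 0 (IRF3). Some log2 fold-changes that were not called changed sign in this way. These were OAS1 (-0.0833 to 0.72) and OAS3 (-0.0076 to 0.21) at day 7 against day 0, ISG15 with palbociclib against day 0 (-0.29 to 0.0517), and OAS1 in bleomycin against TVB-3166 (-0.14 to 0.0229). No called change of a member changed sign under any alternative run.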

Other observations

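The 10 other genes whose mean log2 CPM over the 8 groups was most like the average of the 7 members were IL1RAP, ITSN2, HIPK3, DDX58, UNC13A, HELZ2, CX3CR1, MIR6884, BST2, and ZBED6CL, with Pearson correlations of 0.994 to 0.963 over 8 group means, which share libraries and are a description with no test. DDX58 encodes the RNA sensor RIG-I, HELZ2 is a helicase, BST2 tethers virions to the cell surface, IL1RAP is a receptor subunit for interleukin 1, and CX3CR1 is a chemokine receptor. DDX58 was at 3.89 CPM on average at day 0, 9.77 with TVB-3166, and 14.7 with bleomycin, and BST2 was at 1.27, 4.66, and 17.6 CPM. ITSN2, at 40.8 CPM at day 0 and 65.2 CPM with bleomycin, followed the same order over a smaller range. MIR6884 was near the floor, at 0.116 CPM on average at day 0 and 0.233 CPM with bleomycin. Among the members themselves, the correlation with the average was 0.924 for OAS1, the lowest, 0.948 for OAS3, and 0.960 to 0.985 for the others. Each member is part of that average, which raises its correlation, so these values cannot be set against those of the 10 other genes. The same 10 genes were found with a prior count of 0.5 in place of 2.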
